A study of Homo sapiens with 4 samples.

Results

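The 52 genes described here encode factors that build the small ribosomal subunit: the small-subunit (SSU) processome, the enzymes that modify 18S rRNA, and the proteins that finish and export the 40S precursor. They were chosen by name, as the pathway in which the yeast homolog of DDX52 acts. DEAD/DEAH helicases and ribosomal proteins were left out of the list. All 52 symbols were paired with an Ensembl identifier among the 60671 identifiers of the deposited tables. RNA was sequenced from 22RV1 and PC3 prostate carcinoma cells, each transduced with a lentiviral control hairpin (shCON) or a hairpin against DDX52 (shDDX52) and selected with puromycin as stable transformants. Each of the 4 conditions (22RV1 shCON, 22RV1 shDDX52, PC3 shCON and PC3 shDDX52) had 1 library, so no difference below was tested against replicates and no p-value is given. The methods describe a single hairpin against DDX52, so an effect of losing DDX52 and another effect of this hairpin cannot be told apart.

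In the nucleolus, the U3 small nucleolar ribonucleoprotein (snoRNP) and the UTPA, UTPB and UTPC subcomplexes assemble on the 5′ end of the nascent pre-rRNA and form the SSU processome. Within it the pre-rRNA is folded, cleaved and modified, and helicases and GTPases then release a 40S precursor. Export factors carry the precursor to the cytoplasm, where kinases and an endonuclease complete 18S rRNA. DDX52, the human homolog of yeast Rok1, is a DEAD-box helicase of this pathway.

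Values are TPM, a unit of transcript abundance that is scaled for transcript length within each library, so that levels can be set side by side between genes. The log2 ratio compares TPM + 1 in shDDX52 with TPM + 1 in shCON. Genes reaching 1 TPM in the shCON or the shDDX52 library of a line were counted as tested there. DDX52 itself (ENSG00000278053) was at 4.88 TPM with shCON and 1.20 TPM with shDDX52 in 22RV1, and at 9.20 and 2.07 TPM in the PC3 libraries. Its level in shDDX52 was thus 24.6% of the control in 22RV1 and 22.5% in PC3. The 4 libraries summed to between 984448 and 990860 TPM and held 13504 to 13738 genes with at least 1 TPM. The depth in reads is unknown, so the counting error of a value cannot be given. Genes annotated as rRNA held 1.21% and 0.0872% of the TPM in 22RV1 and 0.0923% and 3.13% in PC3, shCON first. The prostate kallikreins KLK2, at 32.6 and 23.1 TPM, and KLK3, at 6.84 and 4.51 TPM, were present in 22RV1 and at 0 in both PC3 libraries. HOXB13, a prostate homeobox gene, was in all 4, at 89.9 and 104.7 TPM in 22RV1 and 39.9 and 34.1 TPM in PC3. Of 7 genes marking PC3, all had at least 1 TPM in PC3, with a summed level of 3234 TPM in PC3 shCON against 295 TPM in 22RV1 shCON, and 4 also reached 1 TPM in 22RV1. LGALS1 held 2331 and 266 TPM of these sums, while CAV1 was at 162 and 0.45 TPM.

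The assembly factors were well expressed in every library. The median member was at 38.2 TPM in 22RV1 shCON and 32.3 TPM in PC3 shCON, and the median of all genes with at least 1 TPM was 10.1 and 10.7 TPM. Together the members held 0.462%, 0.451%, 0.373% and 0.325% of the TPM in 22RV1 shCON, 22RV1 shDDX52, PC3 shCON and PC3 shDDX52. The U3 snoRNP methyltransferase FBL (fibrillarin; ENSG00000105202) was the highest member in 22RV1, at 933 and 974 TPM. NCL (nucleolin; ENSG00000115053), an abundant nucleolar RNA-binding protein, was the highest in PC3 shCON at 586 TPM. Among tested members the large HEAT-repeat protein UTP20 was the lowest except in PC3 shDDX52, at 2.36 and 2.07 TPM in 22RV1 and at 3.51 and 3.72 TPM in PC3. The order of the members was alike in the control libraries, with a Spearman rho of 0.83 over 51 members, beside 0.81 over all 12175 genes tested in both cell lines.

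**Figure D1:**
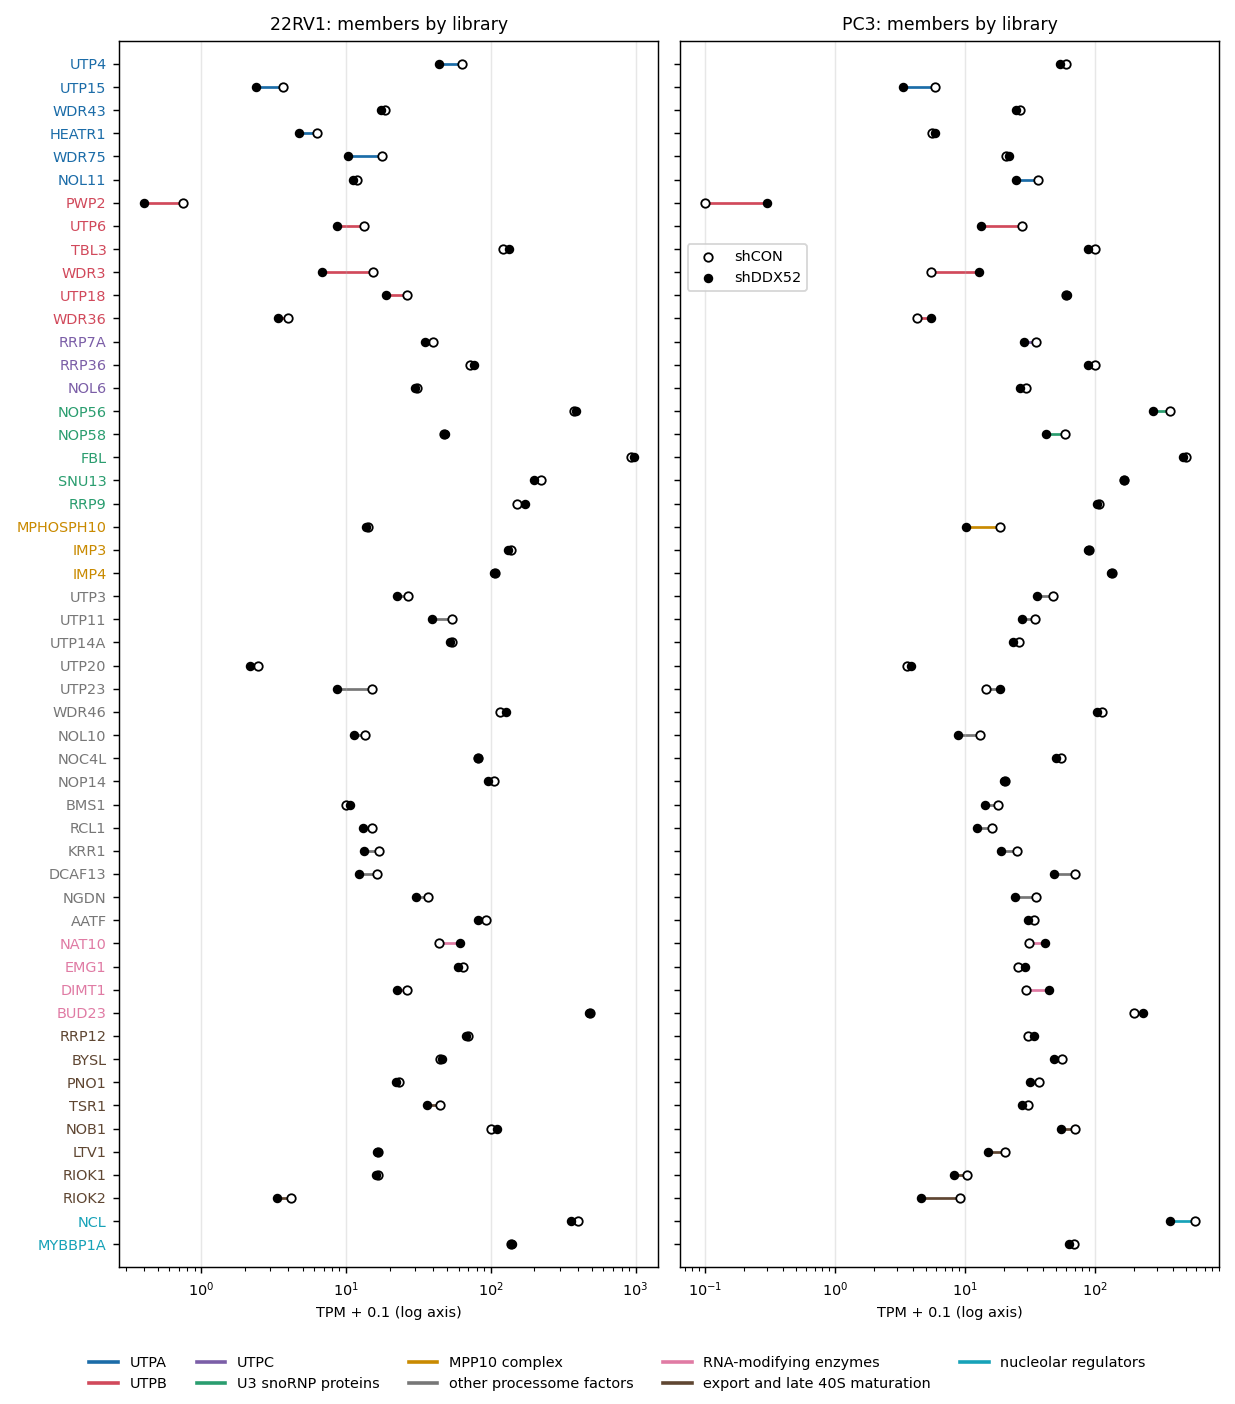
TPM + 0.1 on a log axis for the 52 members (rows, coloured by subcomplex) in 22RV1 (left) and PC3 (right), with an open point for shCON and a filled point for shDDX52, 1 library each. WDR3 has the widest gap in 22RV1 and is reversed in PC3, and PWP2 lies at the left in all 4 libraries.

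In 22RV1, the median log2 ratio of the 51 tested members was −0.11, beside −0.076 over all 14438 genes tested. At least 1.5-fold lower in shDDX52 were 3 members, namely WDR3, WDR75 and UTP23, and 0 members were at least 1.5-fold higher. WDR3 alone was at least 2-fold lower, as were 2.86% of all genes, and 0 members were 2-fold higher, where 2.24% of all genes were. By the 1.5-fold rule 8.47% of all genes tested were lower and 5.61% higher, so the member counts lay at or under the background. At least 0.32 lower on the log2 scale were 10 members, where 22.6% of all genes were, and NAT10 was the 1 member at least 0.32 higher, where 12.7% were. Below 0 were 39 members and above 0 were 12, where 58.8% of all genes lay below 0 and 40.9% above. Against the median of all genes the members split 28 below and 23 above. TPM is a share of each library, so less of these transcripts per cell and more of other RNA cannot be told apart. Their summed level was 4564 TPM in shCON and 4470.1 TPM in shDDX52, a change of −2.06%, which turned to 2.28% when TPM was recomputed without mitochondrial and the 20 highest genes.

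In PC3, the median log2 ratio was −0.16 over 51 tested members and −0.036 over 14262 genes. Among genes with at least 10 TPM in shCON the medians were nearer, at −0.16 for the members and −0.097 for all. At least 1.5-fold lower were 5 members (UTP6, RIOK2, MPHOSPH10, UTP15 and NCL), and 2 were at least 1.5-fold higher (WDR3 and DIMT1). Of all genes tested, 9.84% were lower and 8.95% higher by this rule. At least 2-fold lower were 0 members, where 3.44% of all genes were, and WDR3 was the 1 member at least 2-fold higher, where 2.86% were. Below 0 were 38 members and above 0 were 13, with 53.5% of all genes below 0 and 46.3% above. At least 0.32 lower on the log2 scale were 18 members, where 22.5% of all genes were, and 4 members were at least 0.32 higher, where 19.7% were. The members summed to 3691 TPM in shCON and 3199 TPM in shDDX52, a change of −13.3%. In TPM the widest differences were those of NCL, at 586 and 377 TPM, and NOP56, at 376 and 277 TPM. In the PC3 libraries nuclear protein-coding genes held 88.4% of the TPM in shCON and 81.3% in shDDX52. Rescaled to nuclear protein-coding genes, the median was 0.087 over the 12166 genes tested on that scale and −0.030 over the members. The members then split into 30 below 0 and 21 above. Their summed level changed by −5.16% on that scale. Against the median of all genes, the split was 35 members below and 16 above on the deposited scale. It was the same against the median on the nuclear protein-coding scale, where it could hardly differ because rescaling shifts all ratios nearly alike. Among genes with at least 10 TPM in shCON, 36 of 45 members were below 0 in PC3, where 62.3% of such genes were, and 34 of 45 in 22RV1, where 60.2% were.

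**Figure D2:**
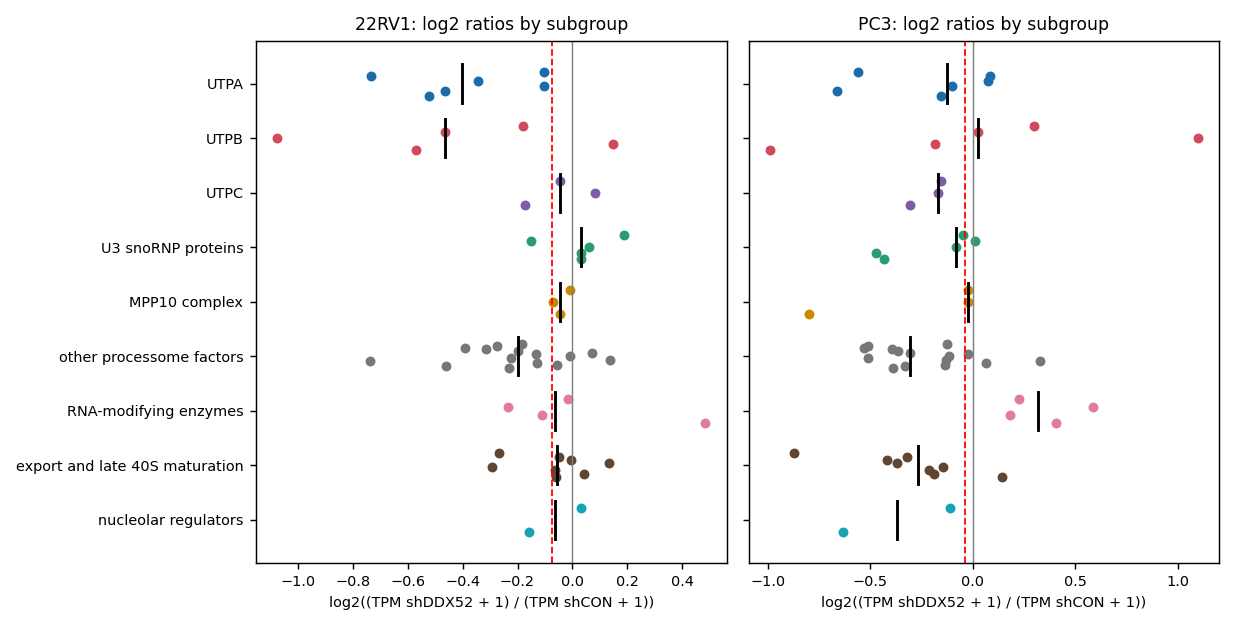
Log2 ratio of each tested member (points) by subcomplex in 22RV1 (left) and PC3 (right), with the subgroup median as a black bar, 0 as a grey line and the median of all genes as a red dashed line. The 6 UTPA points lie left of the red line in 22RV1, and the 4 RNA-modifying enzymes lie right of 0 in PC3.

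The UTPA proteins, which bind the 5′ external transcribed spacer first and are tied to transcription of the rRNA genes, had 6 of 6 log2 ratios below 0 in 22RV1, where 58.8% of all genes were. The ratios lay between −0.73 and −0.10 with a median of −0.40, 1 of the 6 was at least 1.5-fold lower, and the summed level of the subcomplex was 121 TPM in shCON and 88.9 TPM in shDDX52. WDR75 (ENSG00000115368, chr2:189441433-189475565 in GRCh38) was at 17.7 TPM with shCON and 10.2 TPM with shDDX52 in 22RV1. In PC3 it was at 20.4 and 21.7 TPM. WDR75 was thus lower in the 22RV1 knockdown (log2 ratio −0.73) and nearly level in PC3 (0.086). UTP4 (cirhin) was at 62.9 and 43.5 TPM in 22RV1 and at 60.1 and 53.8 TPM in PC3, log2 ratios of −0.52 and −0.16. UTP15 (ENSG00000164338, chr5:73565443-73583377) was low in every library, at 3.55 and 2.30 TPM in 22RV1 and 5.74 and 3.25 TPM in PC3. Its log2 ratios were −0.46 and −0.67, and the latter went to −0.58, under 1.5-fold, on the nuclear protein-coding scale. The scaffold HEATR1 was at 6.15 and 4.64 TPM in 22RV1 and at 5.46 and 5.79 TPM in PC3. NOL11 showed the reverse balance, with 11.9 and 11.0 TPM in 22RV1 but 36.4 and 24.4 TPM in PC3. WDR43 had a log2 ratio of −0.10 in each line. In 22RV1, WDR43 and NOL11 reached 0.11 and 0.056 under other scalings. In PC3, 4 of the 6 were below 0, where 53.5% of all genes were, and the median was −0.13.

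UTPB, the subcomplex that contacts U3 snoRNA and the spacer, held the members with the widest differences. WDR3 (ENSG00000065183, chr1:117929720-117966542), a beta-propeller protein of the UTPB core, was at 15.3 TPM with shCON and 6.75 TPM with shDDX52 in 22RV1. In PC3 the order was reversed, with 5.38 TPM in shCON and 12.7 TPM in shDDX52. The knockdown level was 44.0% of the control in 22RV1 and 236% in PC3, log2 ratios of −1.08 and 1.10. The high pair, 22RV1 shCON and PC3 shDDX52, and the low pair, 22RV1 shDDX52 and PC3 shCON, therefore crossed the conditions. WDR3 had both the lowest ratio of the members in 22RV1 and the highest in PC3. The rRNA share of TPM was crossed in the same way. It was 1.21% and 3.13% in the high pair and 0.0872% and 0.0923% in the low pair. With 1 library per condition, a link between this share and WDR3 was not tested. UTP6 (ENSG00000108651, chr17:31860899-31901765) was at 13.1 and 8.51 TPM in 22RV1 and at 27.4 and 13.3 TPM in PC3. It was at 64.9% of the control in 22RV1 and 48.5% in PC3 (log2 ratios −0.57 and −0.99), the lowest ratio among the members in PC3. UTP18 was at 26.4 and 18.9 TPM in 22RV1 and at 59.7 and 60.8 TPM in PC3. The abundant TBL3 was at 121 and 134 TPM in 22RV1 and at 100.04 and 87.9 TPM in PC3, log2 ratios of 0.15 and −0.19. WDR36 was at 3.84 and 3.27 TPM in 22RV1 and at 4.20 and 5.40 TPM in PC3. The 250 bases before the RefSeq start of WDR3 and UTP6 (GRCh38.p14) are shown because WDR3 differed in opposite directions in the cell lines and UTP6 was lower in both. They lie at chr1:117929489-117929738 on the plus strand and at chr17:31901709-31901958 on the minus strand. Capitals mark the ETS-family motif CCGGAAG on either strand, which stands 29 and 15 bases before the start of WDR3 and is not in this window of UTP6.
WDR3: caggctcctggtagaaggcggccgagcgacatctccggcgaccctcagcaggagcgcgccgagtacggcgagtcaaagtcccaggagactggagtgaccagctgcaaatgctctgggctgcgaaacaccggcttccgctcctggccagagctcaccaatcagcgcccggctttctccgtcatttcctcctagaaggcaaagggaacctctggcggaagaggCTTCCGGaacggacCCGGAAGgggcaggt
UTP6: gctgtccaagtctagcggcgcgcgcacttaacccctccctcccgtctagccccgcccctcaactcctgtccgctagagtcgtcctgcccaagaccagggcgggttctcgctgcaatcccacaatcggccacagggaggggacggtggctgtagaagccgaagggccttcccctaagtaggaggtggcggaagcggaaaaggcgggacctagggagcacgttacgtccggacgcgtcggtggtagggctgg
The coding gene GDAP2 starts 90 bases from WDR3 on the opposite strand, with a log2 ratio of −0.013 in 22RV1 and 0.34 in PC3.

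PWP2, a further UTPB core protein, was the member that could not be read from its own identifier. PWP2 (ENSG00000241945, chr21:44107290-44131181) was listed at 0.65, 0.30, 0 and 0.20 TPM in 22RV1 shCON, 22RV1 shDDX52, PC3 shCON and PC3 shDDX52, under the 1 TPM filter in both cell lines. Of its transcript 50-mers, 93.4% also occur in ENSG00000275464, a coding gene annotated at chr21:5130871-5154734 in GENCODE 29 that is not a member. That gene was at 39.3, 36.2, 42.9 and 43.3 TPM in the same order. Reads of the 2 genes can hardly be told apart, and their summed level of 39.9, 36.5, 42.9 and 43.5 TPM gave a log2 ratio of −0.12 for 22RV1 and 0.017 for PC3. A smaller share, 18.8%, of the 50-mers of the UTPC protein RRP7A occurs in the pseudogene RRP7BP, which was higher than RRP7A itself, at 62.0, 57.4, 64.5 and 37.9 TPM. In all, 13 members overlap a gene on the opposite strand that shares at least 5% of their 50-mers. Among them, EMG1 shares 39.9% with LPCAT3, which was at 41.5 and 43.6 TPM in 22RV1 and 20.2 and 17.9 TPM in PC3. Whether the counting used strand is not given in the sources used here.

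UTPC, the U3 snoRNP and the MPP10 complex differed little in 22RV1. The UTPC proteins RRP7A, RRP36 and NOL6 had a median ratio of −0.047 in 22RV1 and −0.17 in PC3. In the U3 snoRNP, FBL was at 933 and 974 TPM in 22RV1 and 499 and 471 TPM in PC3. Its scaffold partner NOP56 was at 377 and 386 TPM in 22RV1 and 376 and 277 TPM in PC3. NOP58, the other scaffold, was at 47.1 and 48.2 TPM in 22RV1 and 58.4 and 41.8 TPM in PC3. NOP56 and NOP58 thus shared a ratio of 0.03 in 22RV1 and stood at −0.44 and −0.47 in PC3, while FBL, the k-turn binder SNU13 (0.011) and the U3-specific RRP9 (−0.048) lay near 0 there. Over the 5 proteins the median was 0.032 in 22RV1 and −0.084 in PC3. The PC3 median turned to 0.045 on the nuclear protein-coding scale and to 0.015 when centred on genes of like length and GC content. In the MPP10 complex, which joins U3 snoRNA to the 18S region, MPHOSPH10 (ENSG00000124383, chr2:71130314-71150101) was at 14.2 and 13.7 TPM in 22RV1. In PC3 it was at 18.4 TPM in shCON and 10.2 TPM in shDDX52, 55.2% of the control (log2 ratio −0.80, or −0.54, under 1.5-fold, when centred on length and GC content). Its partners IMP3, at 89.5 and 88.2 TPM, and IMP4, at 134 and 132 TPM, were level in PC3. The transcripts of 1 complex therefore did not differ alike in PC3.

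Of the 15 other processome factors, 13 were below 0 in 22RV1 and 13 in PC3, where 58.8% and 53.5% of all genes were. Their medians were −0.20 and −0.31. UTP23 (ENSG00000147679), a PIN-domain protein, was at 15.0 and 8.61 TPM in 22RV1 (log2 ratio −0.74) but at 14.5 and 18.5 TPM in PC3 (0.33). UTP11 was at 53.9 and 38.9 TPM in 22RV1 and at 34.5 and 27.2 TPM in PC3. DCAF13 was at 16.3 and 12.2 TPM in 22RV1 and at 69.9 and 48.0 TPM in PC3. UTP11 and DCAF13 were lower in both lines, with log2 ratios of −0.46 and −0.33 for UTP11 and −0.39 and −0.53 for DCAF13. Across the settings run, UTP11 reached −0.22 in 22RV1 and −0.054 in PC3, and DCAF13 −0.24 and −0.41. The 3 partners of 1 processome module, NGDN, NOL10 and AATF, had ratios of −0.28, −0.22 and −0.18 in 22RV1 and of −0.51, −0.51 and −0.13 in PC3. The GTPase BMS1 and its partner RCL1 parted in 22RV1, at 0.071 and −0.20, and stood at −0.31 and −0.37 in PC3. KRR1, UTP3, NOP14, NOC4L, UTP14A and UTP20 had ratios between −0.31 and −0.0091 in 22RV1 and between −0.39 and 0.066 in PC3. WDR46 was at 115 and 127 TPM in 22RV1 and 113 and 103 TPM in PC3.

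The enzymes that modify 18S rRNA had 4 of 4 ratios above 0 in PC3, where 46.3% of all genes were above 0. DIMT1 alone passed 1.5-fold there, and EMG1 (0.18) and BUD23 (0.23) did not reach 0.32. NAT10 (ENSG00000135372, chr11:34105602-34147670), the cytidine acetyltransferase, was at 43.5 TPM with shCON and 61.2 TPM with shDDX52 in 22RV1. In PC3 it was at 31.0 and 41.3 TPM. NAT10 was thus at 141% of the control in 22RV1 and 134% in PC3, log2 ratios of 0.48 and 0.41, and was the member with the highest ratio in 22RV1. DIMT1 (ENSG00000086189, chr5:62387254-62403939), the adenosine dimethyltransferase, was at 26.4 and 22.3 TPM in 22RV1 and at 29.3 and 44.5 TPM in PC3, ratios of −0.23 and 0.59. The divergent gene IPO11, which starts 33 bases away, went against it in PC3, with a log2 ratio of −0.72. The pseudouridine methyltransferase EMG1 was at 64.2 and 59.4 TPM in 22RV1 and 25.5 and 29.1 TPM in PC3. The guanosine methyltransferase BUD23 was at 484 and 479 TPM in 22RV1 and 199 and 233 TPM in PC3. Median ratios of the 4 enzymes were −0.063 in 22RV1 and 0.32 in PC3, and in PC3 each enzyme stayed above 0 in every setting run. The 250 bases before the start of NAT10 (chr11:34105379-34105628, plus strand, GRCh38.p14) are shown because NAT10 was the single member above 0 in both cell lines on the deposited scale and the 1 member at least 0.32 higher in both. Capitals mark a CACGTG box 15 bases before the start.
NAT10: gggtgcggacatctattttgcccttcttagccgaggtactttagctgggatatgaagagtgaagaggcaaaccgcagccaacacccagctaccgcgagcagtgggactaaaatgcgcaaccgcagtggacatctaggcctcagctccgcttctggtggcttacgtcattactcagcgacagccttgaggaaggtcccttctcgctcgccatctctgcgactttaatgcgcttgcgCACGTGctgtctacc

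Over the 8 export and late 40S factors the median ratio was −0.056 in 22RV1 and −0.27 in PC3, the latter moving to −0.15 on the nuclear protein-coding scale. In PC3, 7 of 8 were below 0, where 53.5% of all genes were, and 1 of the 8, RIOK2, was at least 1.5-fold lower. RIOK2 (ENSG00000058729, chr5:97160867-97183260), an atypical kinase of the late 40S particle, was at 4.07 and 3.21 TPM in 22RV1. In PC3 it was at 9.01 TPM in shCON and 4.47 TPM in shDDX52, 49.6% of the control (log2 ratio −0.87). Its relative RIOK1 was at 10.4 and 8.07 TPM in PC3 and at 16.5 and 15.9 TPM in 22RV1. NOB1, the endonuclease that makes the 3′ end of 18S rRNA, was at 99.6 and 109 TPM in 22RV1 and at 70.3 and 54.2 TPM in PC3, ratios of 0.13 and −0.37. PNO1, the partner of NOB1, was at 23.1 and 22.1 TPM in 22RV1 and at 37.1 and 31.8 TPM in PC3. LTV1 was level in 22RV1 (−0.0061) and at 20.1 and 14.8 TPM in PC3 (−0.42). The export factor RRP12 was the exception in PC3, at 30.6 and 33.9 TPM. BYSL and TSR1 had ratios of 0.043 and −0.29 in 22RV1 and −0.19 and −0.15 in PC3.

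Of the nucleolar regulators, NCL (chr2:231453531-231483641) was at 402 and 359.9 TPM in 22RV1. In PC3 it was at 586 and 377 TPM, so that the knockdown stood at 64.4% of the control, a log2 ratio of −0.63 that was −0.50 on the nuclear protein-coding scale, under 1.5-fold. This was the widest difference of the members in absolute level. MYBBP1A, a repressor of transcription in the nucleolus, was at 138 and 141 TPM in 22RV1 and 68.3 and 63.2 TPM in PC3.

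The contrasts of 22RV1 and PC3 share no library, so the member ratios can be set side by side. Below 0 in both cell lines were 27 of 51 members (52.9%), beside 32.5% of all 12175 genes tested in both. Above 0 in both was NAT10 alone (1.96%), beside 18.5% of all genes, and 23 members (45.1%) had opposite signs, beside 48.8%. Of these, 12 were below 0 in 22RV1 and above 0 in PC3, as 27.4% of all genes were, and 11 the reverse, as 21.4% were. These counts depend on where 0 lies. On the nuclear protein-coding scale 21 members were below 0 in both (24.1% of the 11009 genes tested there) and 7 above 0 in both (25.3%). The 7 were NAT10, FBL, RRP9, IMP4, NOC4L, BUD23 and MYBBP1A. Centred on the median of all genes, 17 were below 0 in both (25.6%) and 5 above (25.1%). At least 0.32 lower on the log2 scale in both lines were UTP6, UTP15, UTP11 and DCAF13, 4 members, where 5.22% of all genes were that much lower in both. At least 0.32 higher in both was NAT10, where 2.45% of all genes were, and WDR3 and UTP23 passed 0.32 in opposite directions, where 7.24% of all genes did. UTP6, UTP15, UTP11, DCAF13 and NAT10 did not keep this cut in every setting run. In 22RV1, UTP6 and UTP15 reached −0.31, UTP11 −0.22 and DCAF13 −0.24, and NAT10 reached 0.31 in PC3. The size of a member's ratio in 1 line said little about the other: Spearman's rho was 0.014 over the 51 members and 0.012 over all genes.

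**Figure D3:**
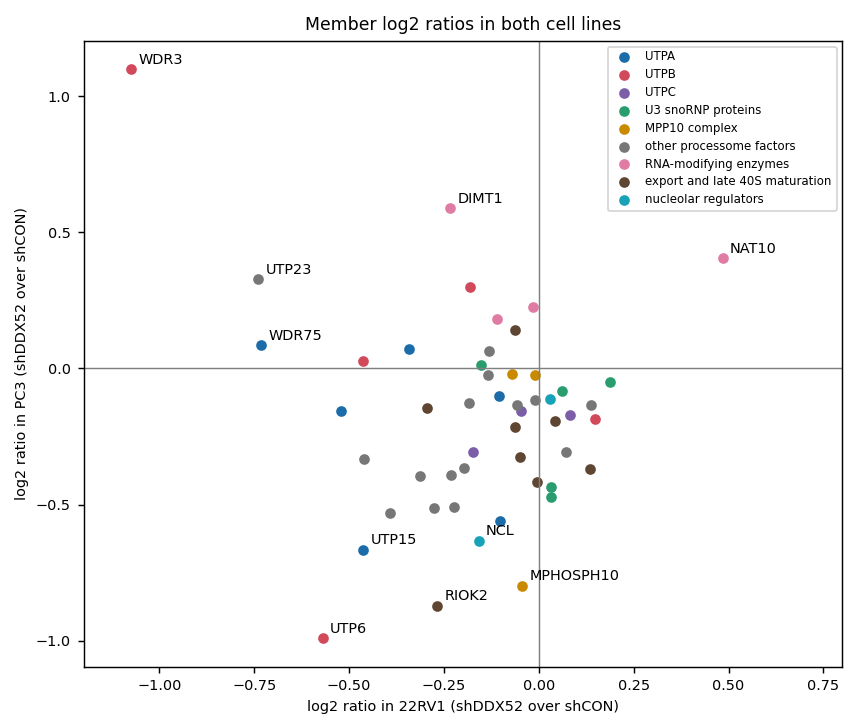
Log2 ratio in PC3 against log2 ratio in 22RV1 for the 51 members tested in both cell lines, coloured by subcomplex, with grey lines at 0. WDR3 stands at the upper left (−1.08 and 1.10), UTP6 at the bottom (−0.57 and −0.99), and NAT10 is the single point above 0 on both axes of this deposited scale.

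The control libraries differed in the level of single factors and in the summed level of the list. The members summed to 4564 TPM in 22RV1 shCON and 3691 TPM in PC3 shCON, a difference of −19.1%, while their median was close to that of all genes. In TPM the widest differences were those of FBL, at 933 and 499 TPM, and BUD23, at 484 and 199 TPM. NCL went the other way, at 402 and 586 TPM. The level in PC3 shCON minus that in 22RV1 shCON had a median of −0.046 over the members and −0.067 over all 15727 genes, on the log2(TPM + 1) scale. At least 1.5-fold higher in PC3 were 8 members, where 29.3% of all genes were, and 12 were at least 1.5-fold lower, where 32.2% were. At least 2-fold higher in PC3 were 4 members, where 19.9% of all genes were. These were DCAF13 (16.3 TPM in 22RV1 and 69.9 TPM in PC3), NOL11 (11.9 and 36.4 TPM), UTP18 (26.4 and 59.7 TPM) and UTP6 (13.1 and 27.4 TPM). RIOK2, at 4.07 and 9.01 TPM, passed 2-fold in TPM but not on the log2(TPM + 1) scale. At least 2-fold lower in PC3 were 8 members, where 21.3% of all genes were. The widest was NOP14, at 104 TPM in 22RV1 and 20.1 TPM in PC3, and the others were AATF, WDR3, EMG1, BUD23, RRP12, UTP14A and MYBBP1A. NOP14 and EMG1, which bind each other in the processome, were thus both lower in PC3, while their partner NOC4L was at 81.7 and 54.2 TPM.

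**Figure D4:**
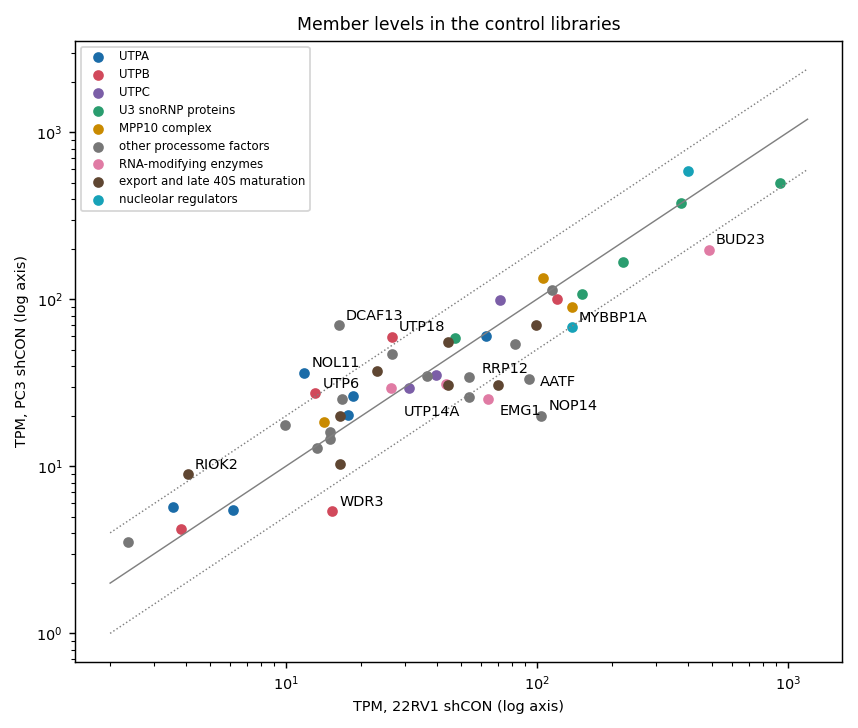
TPM in PC3 shCON against TPM in 22RV1 shCON for the 51 tested members on log axes, coloured by subcomplex, with the line of equal levels and dotted lines at 2-fold. Members outside the dotted lines are named, with NOP14 furthest below (104 against 20.1 TPM) and DCAF13 furthest above (16.3 against 69.9 TPM).

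Transcript composition moved with the ratios in 22RV1. Over the 51 members, the Spearman rho between the GC content of the longest GENCODE 29 transcript and the log2 ratio was 0.61 in 22RV1 and 0.19 in PC3, beside 0.30 and −0.0014 over all genes tested. Over the members in 22RV1, rho with the log2 ratio was also 0.49 for TPM in shCON and −0.36 for transcript length. For length it was −0.036 over all genes. In PC3 the member values were −0.044 for TPM in shCON and 0.10 for length. These points share their libraries and are given as a description. The median GC content was 46.8% for the members and 49.6% for expressed coding genes. The AT-rich members UTP23 (37.0%), WDR75 (37.7%) and WDR3 (39.5%) were the lowest in 22RV1, and RRP9 (60.9%) and TBL3 (63.8%) were above 0. Other AT-rich members were less low, such as KRR1 (36.0%, log2 ratio −0.31), RIOK2 (36.5%, −0.27) and WDR36 (37.3%, −0.18). The GC-rich NOC4L (64.8%) and RRP12 (58.6%) lay slightly below 0, at −0.0091 and −0.062. Centred on genes of like length and GC content, WDR3 stood at −0.91, WDR75 at −0.57, UTP23 at −0.59 and UTP6 at −0.31 in 22RV1, TBL3 turned to −0.0033, and the medians of UTPA and UTPB went to −0.24 and −0.27.

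**Figure D5:**
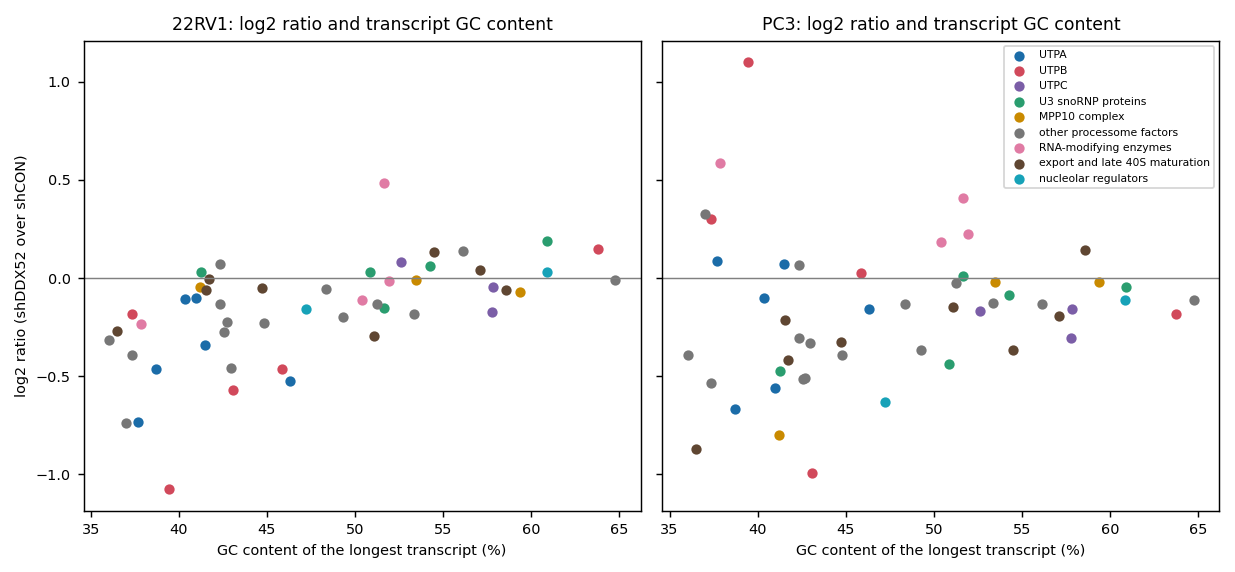
Log2 ratio of the tested members against the GC content (%) of their longest transcript in 22RV1 (left) and PC3 (right), coloured by subcomplex, with a grey line at 0. In 22RV1 the 3 lowest ratios lie among transcripts under 40% GC, while in PC3 low and high ratios both occur there.

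Promoter motifs were not used in the choice of members. RefSeq windows from 250 bases before to 50 after the start (GRCh38.p14) were found for 45 of the 52 members. Genes can have several windows (35116 windows for 27305 genes), and a gene was counted if any of its windows held the motif. CACGTG, the E-box bound by MYC and related factors, which reads the same on either strand, was in 19 of the 45 members (42.2%). It was in 8.77% of all 27305 genes and in 12.6% of expressed coding genes. Among genes with a window, 14 of 43 60S assembly factors and 2 of 25 40S ribosomal proteins held it. The ETS motif CCGGAAG was in 17 members (37.8%), beside 12.2% of all genes and 22.1% of expressed coding genes. CACGCG was in 11 (24.4%, beside 13.5% and 22.2%), AAGATGGC, the core of the YY1 motif, in 5 (11.1%, beside 3.52% and 6.26%). The palindromic NRF1 motif was in 3 (6.67%, beside 1.52% and 2.57%), the Kaiso (ZBTB33) palindrome in 2 (4.44%, beside 0.505% and 0.992%) and the ZNF143 motif in 0, beside 0.289% and 0.62%. All motifs were searched on both strands, and none of the 7 contains another. The member promoters were GC-rich, with a median of 62.8% and 20 CG dinucleotides in the 250 bases, beside 58% and 11 over all genes. Tested members with a CACGTG box had a median ratio of −0.052 in 22RV1 and −0.12 in PC3 (18 genes), and those with none −0.18 and −0.31 (26 genes). In 22RV1 the order was reversed for CACGCG (−0.23 with and −0.071 without) and CCGGAAG (−0.18 and −0.087). It was not reversed for AAGATGGC (−0.0099 and −0.13). In PC3 the same pairs, in this order, were −0.13 and −0.17, −0.14 and −0.17, and −0.13 and −0.16. The split was not made over all genes, and a link of any motif with the ratios was not tested. The boxes of 5 highly expressed members are shown with 12 bases on either side, CACGTG in capitals, because they show how the flanks and the place of the box vary. They lie 6 bases after the start in FBL (chr19:39846356-39846385, minus strand), 5 before in RRP9 (chr3:51941892-51941921, minus), 203 before in IMP4 (chr2:130342682-130342711, plus; 1 of 2 boxes in its window), 27 after in MYBBP1A (chr17:4555340-4555369, minus) and 157 before in AATF (chr17:36948785-36948814, plus).
FBL: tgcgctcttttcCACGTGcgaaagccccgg
RRP9: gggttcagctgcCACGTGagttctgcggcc
IMP4: gcggtcctaagtCACGTGtgacattctgta
MYBBP1A: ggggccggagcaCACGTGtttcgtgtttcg
AATF: gacagaagcggtCACGTGccttggcgcgct
A coding gene starts within 1000 bases on the opposite strand for 11 of 51 members (21.6%), beside 8.56% of 13178 expressed coding genes.

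Neighbouring lists place the members within ribosome assembly. Of 20 further 40S factors, 19 were tested, with medians of −0.064 in 22RV1 and −0.12 in PC3. DNTTIP2, a processome factor, was the only one past 1.5-fold, at 8.89 and 10.1 TPM in 22RV1 and at 20.9 and 9.28 TPM in PC3 (log2 ratio −1.09 in PC3). The 49 factors of 60S assembly had a median of −0.14 in 22RV1 and −0.20 in PC3. Of these, 36 and 38 genes were below 0, where 58.8% and 53.5% of all genes were. The 32 ribosomal proteins of the 40S subunit had a median of −0.013 in 22RV1 and −0.23 in PC3. The member medians of −0.11 and −0.16 lay between those of the other lists in each line. In PC3 the summed TPM of the members changed by −13.3%. The change was −12.8% for the 60S factors, −11.6% for the 40S ribosomal proteins and −10.7% for the further 40S factors. These changes are in deposited TPM, of which nuclear protein-coding genes held 88.4% in PC3 shCON and 81.3% in PC3 shDDX52. On the nuclear protein-coding scale the change of the members was −5.16%, and sums of the other lists are not given on that scale.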

How the data were processed

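RNA from 22RV1 and PC3 cells with shCON or shDDX52 was sequenced, 1 library per condition. The authors deposited TPM by Ensembl gene. The submitters' processing notes name CASAVA, HISAT2 and hg19 without roles. Of the 60671 deposited identifiers 58453 are in GENCODE 29. They include genes annotated only on GRCh38, such as the PWP2 copy ENSG00000275464, which conflicts with hg19, so the genome build behind the values is unclear. The quantification program and annotation are not given in the sources used here. From the deposited TPM, log2 ratios were computed with a pseudocount of 1 TPM for genes reaching 1 TPM in shCON or shDDX52 of a line, and members past 1.5-fold were counted beside all genes. TPM keeps no depth, so no count model, interval or p-value was used. The members, lists and settings were chosen with earlier results of these data known, and every member could be named. Positions, transcript length, GC content and shared 50-mers came from GENCODE 29 on GRCh38. Whether the deposited values rest on the same annotation is not known. Promoter windows came from RefSeq (GRCh38.p14). Symbols were paired with 42020 of 60671 identifiers. Promoters were printed for WDR3, UTP6 and NAT10 after their values were seen. Boxes were printed for the 6 members highest in mean TPM among those with CACGTG, less 1 whose box lies within 12 bases of the window's edge. Some cell line markers are not reported here. List medians and counts were checked on simulated data. Analyses ran in Python 3.11.15 with scipy 1.17.1, pandas 2.3.3, numpy 2.4.6 and matplotlib 3.10.9.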

Additional observations from a re-analysis of the deposited data

Results flagged for a closer look

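The following values had opposite signs in the 2 cell lines. With 1 library per condition, none of these differences was tested. The log2 ratio of WDR3 in PC3 minus that in 22RV1 was 2.17, from −1.08 in 22RV1 and 1.10 in PC3. The rRNA share of TPM was also lower with shDDX52 in 22RV1 and higher with shDDX52 in PC3. That of UTP23 was 1.07, from −0.74 and 0.33. The UTPB median differed by 0.49, from −0.46 in 22RV1 to 0.027 in PC3, over the 5 tested members without PWP2. With PWP2 and its copy summed and added, the UTPB medians were −0.32 in 22RV1 and 0.022 in PC3. The median of the RNA-modifying enzymes differed by 0.38, from −0.063 to 0.32. The median of the U3 snoRNP proteins differed by −0.12, from 0.032 to −0.084.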

How the results depend on the processing

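No paired analysis was possible because the result comes from no test, with 1 library per condition. Of 360 alternative values for 51 results, 309 moved by less than the set tolerance (0.1 in log2, 1.5 times for counts, 5 percentage points for sums), and no called value changed sign. Some of the 309 could not move. The ratio of a single member is the same under any filter, and the split against the median is the same when centred on it. The 309 is therefore no measure of how stable the results are. Members lower in 22RV1 were 3, against 5 with a pseudocount of 0.1 TPM, 10 at 0.32 on the log2 scale, 1 at 2-fold and 2 when centred on length and GC content (WDR75 lost), and members higher were 0, against 1 at 0.32 on the log2 scale. Members above the median of all genes in 22RV1 were 23, and 12 with no filter, where most of the 60671 genes lie at 0. In PC3, members lower were 5, against 18 at 0.32 on the log2 scale, 0 at 2-fold 3 on the nuclear protein-coding scale (UTP15 and NCL lost) and 4 when centred on length and GC content (MPHOSPH10 lost), and members higher were 2, against 4 at 0.32 on the log2 scale and 1 at 2-fold. On the nuclear protein-coding scale the PC3 median was −0.030 and the summed change −5.16%. The 22RV1 summed change of −2.06% was 2.28% without mitochondrial and the 20 highest genes. In 22RV1 the split of 39 members below 0 and 12 above became 31 and 20 without mitochondrial and the 20 highest genes. Medians near 0 changed sign under some scalings, which were UTPC, the MPP10 complex, the late 40S factors, the RNA-modifying enzymes and the nucleolar regulators in 22RV1, and the U3 snoRNP and the MPP10 complex in PC3. WDR3 stayed between −1.17 and −0.91 in 22RV1 and between 1.03 and 1.24 in PC3, UTP6 between −0.62 and −0.31 and between −1.04 and −0.87, and NAT10 between 0.48 and 0.57 and between 0.31 and 0.53. Centring on length and GC content, adding the PWP2 copy, the background above 10 TPM and the counts in both lines under other scalings were chosen after seeing the data. Where a value moved, the cause was not tested.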
